A study of Homo sapiens with 10 samples.

Results

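The peaks compared here are the regions where RNA was recovered with FLAG-tagged PUS7 in H9 human embryonic stem cells and in HEK 293T, a transformed embryonic kidney line. They comprise all 2048 peaks of the 5 peak lists given for the series, 244 in 3 lists from 293T and 1804 in 2 lists from H9. All 5 libraries came from cells whose own PUS7 was knocked out and which carried FLAG-tagged PUS7 (PUS7KO+FlagPUS7), at passages 20 to 25 in 293T and 40 to 45 in H9. The libraries were made by iCLIP, in which RNA is crosslinked to a protein by UV light in living cells, digested and pulled down on anti-FLAG beads. The 5 mock libraries from PUS7 knockout cells without the tagged protein have no peak list here. The labels name no promoter for the tagged PUS7, no clone number and no separate cultures behind the replicates, so the spread between lists may be technical. The first lists of both lines carry the library barcode CGGA, and the third 293T list and the second H9 list carry GGTT.

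PUS7 is a pseudouridine synthase. It converts uridine to pseudouridine within a short sequence context in tRNAs, mRNAs and other RNAs, and in stem cells it is known for modifying short fragments from the 5′ ends of tRNAs that act on translation. Several RNAs compared here are made by RNA polymerase III: tRNAs, vault RNAs, which are components of the vault particle, and Y RNAs, which bind the Ro protein.

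Genes that mark pluripotent cells had peaks of low signal in the H9 lists. Of 27 such genes, 10 had a peak in the first H9 list and 3 in the second, and 0 had one in any 293T list. Of 18 genes used as 293T markers, 0 had a peak in any list. The microRNA cluster miR-302/367, which is expressed in human embryonic stem cells and lies within the host gene MIR302CHG, accounted for 5 of the 10 genes. The others were LIN28A, DPPA4, DNMT3B, TERF1 and PODXL, each with a highest signal of 3 to 5 in the first H9 list. Every marker signal in H9, at most 8.8, lies below the lowest listed in 293T, which were 9, 13 and 22, so signals of this size could not appear in the 293T lists and the markers do not check the labels. The 3 genes of the second H9 list share 1 peak. Of all 59792 RefSeq genes, 2.61% had a peak in the first H9 list and 0.408% in the second.

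The miR-302/367 peaks are 1 example of an H9 locus without a 293T peak, and their RNAs are given for that reason. Loci in both H9 lists and no 293T list had higher median signals, 14.1 and 9. In the first H9 list a peak on the minus strand of chromosome 4 at 112647601 to 112648600 (hg38) had a signal of 8.8 and covered all 5 hairpins. In the second H9 list a peak at 112648001 to 112648200 had a signal of 6. It covered MIR302D and overlapped only a part of MIR302A, which spans 112648183 to 112648251. The mature 3′ products follow from 5′ to 3′ (RefSeq, GRCh38.p14), with the seed, bases 2 to 8, in capitals. The 4 miR-302 members share 1 seed and miR-367 has another.
hsa-miR-302a-3p: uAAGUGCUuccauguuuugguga
hsa-miR-302b-3p: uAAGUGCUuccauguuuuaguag
hsa-miR-302c-3p: uAAGUGCUuccauguuucagugg
hsa-miR-302d-3p: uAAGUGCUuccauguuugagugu
hsa-miR-367-3p: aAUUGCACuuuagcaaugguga
The hairpins of the members overlapped in both H9 lists are shown whole, with the same seed in capitals, because 200-base bins cannot tell a mature product from its precursor.
MIR302A: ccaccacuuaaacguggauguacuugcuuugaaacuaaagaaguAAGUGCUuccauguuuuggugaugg
MIR302D: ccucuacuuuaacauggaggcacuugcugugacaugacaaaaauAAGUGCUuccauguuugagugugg
The known PUS7 context with G as its second base, written UGUAA or UGUAG, was searched on the RNA strand of the 5 hairpins of the cluster and matched in 0 of them. It matched in 5.63% and 8.90% of all 1562 hairpins in the table. The wider forms UNUAA and UNUAG, which include the former, matched in 4 and 2 of the 5 hairpins, against 20.1% and 23.4% of all hairpins. The miR-302 hairpins are alike in sequence, and those of MIR302B, MIR302C and MIR302D each match UNUAA within the 5′ product. These matches are thus not independent, and no enrichment can be read from them. Beside the miR-302/367 peaks the lists give a second count of 1.61 in the first H9 list and 3 in the second. The lists carry no description of what this second count measures.

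The lists differed in length and in their lowest signal. The signal is the value per 200-base bin, averaged over the bins of a peak and not scaled for sequencing depth, which is unknown. The 293T lists held 120, 85 and 39 peaks with median signals of 20, 28 and 40. The H9 lists held 1605 and 199 peaks with median signals of 3 and 11, and 902 peaks of the first H9 list stood at its minimum of 3. A signal of 22, the lowest of the shortest list, was therefore used as a common floor. At least this signal was reached by 56, 54 and 39 peaks in 293T and by 85 and 47 in H9. Because levels are not comparable between lists, signals are set side by side and loci are compared by rank within a list.

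Most strong 293T peaks were present in H9, while fewer strong H9 peaks were present in 293T. A locus means peaks overlapping by at least 1 base on the same strand. Of the 293T peaks with a signal of at least 22, 98.2%, 98.1% and 97.4% had a peak of any signal in the first H9 list, and 87.5%, 88.9% and 84.6% in the second. Of the H9 peaks with a signal of at least 22, 60.0%, 43.5% and 27.1% of the first list and 63.8%, 57.4% and 40.4% of the second were found in 293T lists 1, 2 and 3. Between the H9 lists the same shares were 89.4% and 95.7%. This asymmetry moves with the length of the list searched, since the longest list is from H9 and the shortest from 293T. With the floor applied on both sides, 46.3% to 64.3% of 293T peaks were found in an H9 list and 27.1% to 53.2% of H9 peaks in a 293T list. Within 293T the share was 66.1% to 94.9%, and within H9 48.2% and 87.2%.

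**Figure D1:**
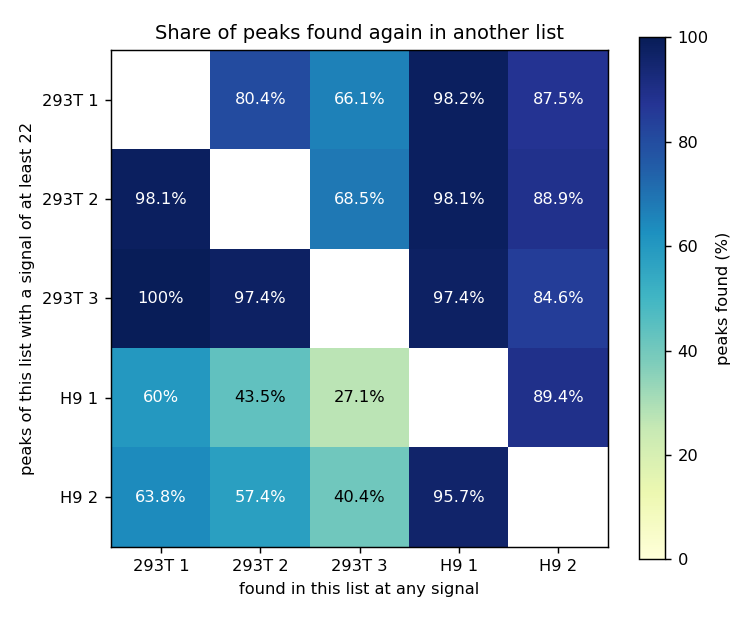
Share (%) of the peaks of each list (rows) with a signal of at least 22 that overlap a peak of any signal in another list (columns), on the same strand. The 293T rows are at 84.6% or more in the H9 columns, while the H9 rows are at 63.8% or less in the 293T columns.

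Loci listed in H9 and not in 293T far outnumbered the reverse over all peaks, and the counts were similar with a common floor applied to every list. Of 1619 loci, 106 (6.55%) were in both H9 lists and no 293T list, 1 (0.0618%) was in all 3 293T lists and no H9 list, and 32 (1.98%) were in all 5. With peaks under 22 dropped from every list, 120 loci remained, and the counts were 15 (12.5%), 13 (10.8%) and 16 (13.3%). With every list shortened to its 39 highest peaks, they were 11, 10 and 9 of 75 loci, and at a higher floor of 40 they were 6, 8 and 6. At an equal floor or an equal length the counts of the lines thus lay within 2 of each other. They ask for 2 lists in H9 and 3 in 293T, and a locus counted there can have a weaker peak in the other line. Of loci at 22 or more in both H9 lists, 12 had no 293T peak of any signal. Of those at 22 or more in all 3 293T lists, 1 had no H9 peak of any signal, and the H9 lists reach lower signals. Without the second H9 list, 1489 loci were in the remaining H9 list and in no 293T list. Without the third 293T list, the shortest, 61 loci were in all remaining lists.

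The 35 loci with a signal of at least 22 in all 3 293T lists were nearly all present in stem cells. Both H9 lists had a peak at 31 of them and 1 H9 list had one at 3. The exception was VTRNA1-2, a vault RNA (chromosome 5, 140718801 to 140719000). It stood at ranks 4, 6 and 4 in the 293T lists, with signals of 492, 391 and 334, and was listed in neither H9 list. The 3 loci with a peak in the first H9 list alone were RNY3, RNY4 and a peak on the strand opposite the gene CCDC85C. RNY3 had signals of 36.5, 44.5 and 34 in 293T and 6 in the first H9 list. RNY4 had 41, 30 and 41 in 293T and 11 in the first H9 list. The CCDC85C peak (chromosome 14, 99583001 to 99583200) had 62, 55 and 46 in 293T and 9 in the first H9 list.

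The vault RNAs carried a smaller share of the signal in H9. VTRNA1-1 was listed with signals of 274, 194 and 167 in 293T against 38 and 16 in H9. Among the 32 loci shared by all lists, where every list has the same length, it ranked 7, 8 and 8 in 293T against 15.5 and 23 in H9. VTRNA1-3 had 57, 45 and 27 in 293T against 15 and 6.5 in H9, and its ranks of 17, 26 and 26.5 in 293T overlapped those of 25 and 32 in H9. VTRNA2-1 had no peak in any list. Vault RNAs carried 9.2%, 7.3% and 10.3% of all signal in the 293T lists and 0.376% and 0.456% in H9. At the floor of 22 the second H9 list held 0 vault peaks of 47. Counted as a share of peaks, this allows up to 6.38% if 3 counts are taken as the limit. The exact 95% binomial interval allows up to 7.55%. Vault RNAs made up 5.36%, 5.56% and 7.69% of peaks at this floor across the 293T lists, and 1.18% of the first H9 list. The first and second 293T values lie below both limits, so the count of 0 alone does not set the second H9 list apart from them. At VTRNA1-1 the second count was 0, 1 and 2 in 293T against 3 and 13 in H9, so that in the second H9 list it was close to the signal of 16. Without peaks whose second count was at least 50% of the signal, an alternative chosen after seeing the data, the second H9 list no longer held VTRNA1-1. The part of the second count in the missing VTRNA1-2 peak was not tested.

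The Y RNAs did not all shift one way. RNY5 ranked 1, 4 and 6 among the 32 shared loci in 293T against 7.5 and 7 in H9, with 17.0%, 8.03% and 5.89% of their signal in 293T against 4.18% and 3.45% in H9. RNY1 ranked 25.5, 20 and 17 in 293T against 9 and 12 in H9, so that it stood higher in both H9 lists than in every 293T list. Its second count was 7.49 and 62 in H9, beside signals of 103 and 35. Under the same second-count alternative the second H9 list no longer held RNY1 either. The second count of RNY5 was 0 in both H9 lists.

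The 32 loci shared by all lists were ranked among themselves, so that every list had the same length. The ranks of the lines did not overlap at 15 loci: 8 (25%) stood higher in H9 and 7 (21.9%) in 293T. Ranks in a fixed set have the same total in every list, so gains and losses tend to balance. Entry to the set also took a signal of at least 22 in the third 293T list, but only 3 and 6 in the H9 lists. Loci strong in H9 such as TRI-AAT7-1 were thus left out, and the counts do not give how many loci favor each line. With 2 lists against 3, an exact two-sided permutation test over the 10 assignments cannot give a p below 0.1, so no locus can pass 0.05 and none was tested. Rank correlations (Spearman's rho over 32 loci of the same 5 libraries, a description) were 0.764 to 0.864 within 293T, 0.810 within H9 and 0.470 to 0.639 between lines. Without the third 293T list, 61 loci were shared and 31 had separate ranks, 16 higher in H9 and 15 in 293T. Ranks separate more easily with fewer lists, so 31 of 61 is not comparable with 15 of 32. Of the 15 loci, 12 kept separate ranks without that list, and TRR-ACG1-1, TRL-TAA4-1 and the locus beside TRH-GTG1-5 did not. Without peaks of high second count 12 loci had separate ranks, 6 higher in each line, and RNY1, VTRNA1-1 and TRR-ACG1-1 were lost.

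The 8 loci higher in H9 included 4 tRNA genes, RNY1 and a gene of the tRNA-Glu series that RefSeq lists as a pseudogene. This was TRE-CTC9-1 (chromosome 2, 150362801 to 150363000), with signals of 69, 89 and 37 in 293T against 244 and 180 in H9. It ranked 13, 16 and 18 in 293T against 4 and 3 in H9, and held 9.03% and 9.86% of the shared signal in H9 against 1.02% to 1.60% in 293T. TRK-CTT2-4, a lysine tRNA gene, had the largest difference in mean rank of these 8, at 32, 30 and 31 in 293T against 14 and 18 in H9, with signals of 17, 34 and 23 and of 39 and 22. TRK-CTT2-2, named as a copy of the same mature tRNA, ranked 10, 19 and 15 in 293T against 10 and 19.5 in H9, which overlap. Genes that share their isotype, anticodon and first number encode the same mature tRNA, and no source used here says how reads were divided among such copies. The leucine genes TRL-TAA4-1 and TRL-CAG2-1 differed by small steps. TRL-CAG2-1 ranked 6, 5 and 4 in 293T against 3 and 2 in H9, with 6.46% to 7.11% of the shared signal in 293T against 11.8% and 11.6% in H9. The arginine gene TRR-ACG1-1 ranked 24, 25 and 21.5 in 293T against 13 and 21 in H9. The remaining 2 loci overlapped no RefSeq gene and lay 44 bases from TRL-AAG1-3 (chromosome 5) and 3 bases from TRH-GTG1-5 (chromosome 6).

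The 7 loci higher in 293T included VTRNA1-1, RNY5, both copies of the asparagine gene TRN-GTT9 and 3 loci without a RefSeq gene. The peak on chromosome 2 at 13924001 to 13924200 ranked 5, 2 and 3 in 293T against 22 and 15 in H9, and the nearest RefSeq gene, LOC107985854, lay 14300 bases away. It held 7.1%, 12.2% and 10.3% of the shared signal in 293T against 0.925% and 1.59% in H9. The peak on the X chromosome at 47802601 to 47802800 had signals of 160, 165 and 126 in 293T against 12 and 9 in H9. It ranked 9, 9 and 10 in 293T against 26.5 and 30 in H9, with WASF4P, a pseudogene, 347 bases away. The third, on chromosome 4 at 157768001 to 157768200, ranked 19, 22 and 13 in 293T against 26.5 and 24 in H9. TRN-GTT9-1 had signals of 208, 252 and 188 in 293T against 29 and 44 in H9, and ranked 8, 7 and 7 in 293T against 21 and 9 in H9. TRN-GTT9-2 had 47, 75 and 59 in 293T against 8 and 12 in H9. The second counts at the 3 loci without a gene were 0 to 3 in all lists.

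**Figure D2:**
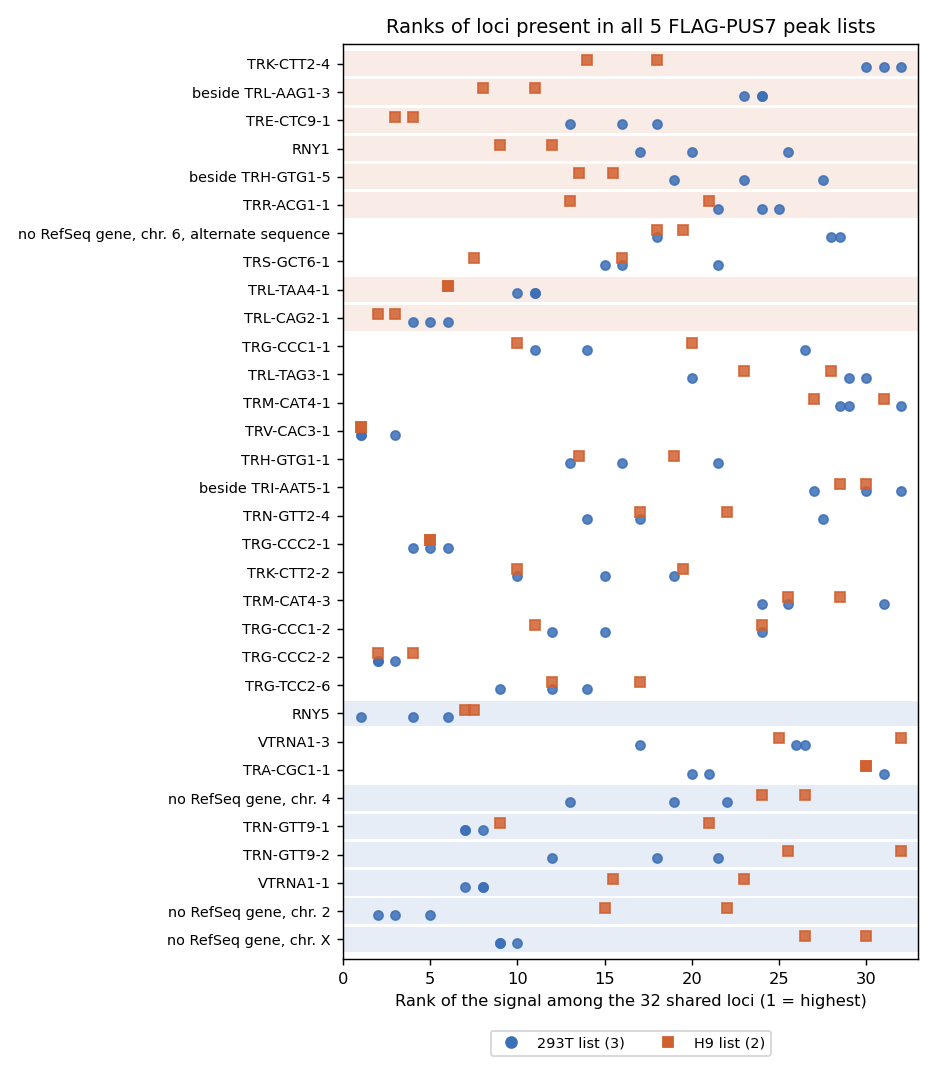
Rank of the signal (x axis, 1 is the highest) of each of the 32 loci held by all 5 lists, with 3 points for 293T (circles) and 2 for H9 (squares). Red shading marks the 8 loci higher in both H9 lists and blue the 7 higher in all 293T lists; TRV-CAC3-1 stood at rank 1 in 4 of the 5 lists.

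Isoleucine was the tRNA isotype whose share differed most between the lines. Ile tRNA genes carried 1.24%, 1.28% and 0% of the signal at tRNA genes in 293T against 18.2% and 25.1% in H9. Most of it came from TRI-AAT7-1 and TRI-AAT7-2, copies on chromosome 6, which ranked 4 and 3 in the first H9 list and 3 and 2 in the second. They are named as copies of the same mature tRNA, and how reads were divided between them is not known. The Ile share in H9 may thus count 1 RNA at both genes. TRI-AAT7-1 had signals of 332 and 342 in H9 and of 10 and 23 in the first and second 293T lists, where it ranked 102 and 49. TRI-AAT7-2, with 340 and 372 in H9, was listed nowhere in 293T. Their second counts in H9 were 0 to 2. A further isoleucine gene, TRI-AAT2-1 (chromosome 6, 27688201 to 27688600), had 49 and 25 in H9, with second counts of 0, and no 293T peak. Other isoleucine genes listed in both lines stood far lower in H9, at ranks 81 to 335. Their signals are set side by side and give no direction between the lines. TRI-AAT8-1 had 21 and 18 in 293T lists 1 and 2 against 17 and 8 in H9, and TRI-TAT2-3 had 9 and 27 against 13 and 13. TRI-TAT2-1 had 17 in 293T list 1 against 6 in the first H9 list. A locus 6 bases from TRI-AAT5-1, not counted in the Ile share, had 27, 40 and 22 in 293T against 10 and 9 in H9.

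Glycine went the other way, with 39.8%, 29.8% and 30.2% of the tRNA signal in 293T against 22.8% and 12.5% in H9. Met genes, both TRM-CAT4-1 and TRM-CAT4-3 among them, carried 1.66%, 1.13% and 1.69% in 293T against 0.581% and 0.675% in H9. Among the loci shared by all lists, no Gly or Met gene had separate ranks between the lines. The mean rank of TRM-CAT4-1 was 29.8 in 293T against 29 in H9, and that of TRG-CCC2-2 was 2.33 against 3. Over all peaks, of 18 isotypes with a peak, the lists of the lines did not overlap for 6. Of these, 4 were higher in H9 (Ile, Gln, Glu and Thr) and 2 in 293T (Gly and Met). Gln, Glu and Thr stayed at or below 2.95% in every list. The third 293T list has no peak under the common floor, so its 0% for Ile, Gln, Glu and Thr may reflect that limit. At the common floor Gln had 0, 1 and 0 peaks in 293T against 0 and 0 in H9. Thr had 1, 0 and 0 against 1 and 0, and Glu 0, 0 and 0 against 2 and 0. By this count Gln, Glu and Thr overlapped. Ile had 0, 2 and 0 against 3 and 4, Gly 5, 4 and 3 against 4 and 4, and Met 2, 2 and 2 against 0 and 0. Val, whose gene TRV-CAC3-1 led 4 of 5 lists, carried 28.0%, 35.8% and 42.3% in 293T against 19.1% and 29.9% in H9, which overlap. Leu was close to even, with 10.1% to 11.5% in 293T against 9.21% and 12.3% in H9. Shares within a list sum to 100%, so a rise of 1 isotype lowers the others.

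**Figure D3:**
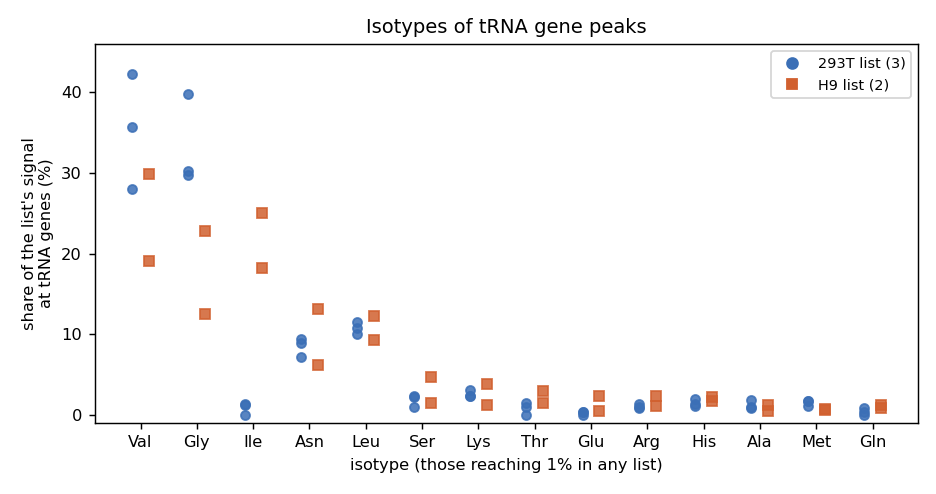
Share (%) of the signal at tRNA genes, over all peaks, carried by each isotype, 1 point per list, for isotypes reaching 1% in any list. Ile stands at 18.2% and 25.1% in H9 (squares) and at 1.28% or less in 293T (circles), and Gly lies lower in both H9 lists.

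The other asparagine genes did not all follow TRN-GTT9. TRN-GTT7-1 (chromosome 1, 120844201 to 120844400) had 96 and 33 in H9 and no 293T peak, with second counts of 0. TRN-GTT2-7 had 28 and 50 in H9 and 9 and 15 in the first and second 293T lists. TRN-GTT6-1, at rank 4 in the second H9 list with a second count of 0, was in no other list. TRN-GTT2-1 had 24 and 16 in the first and second 293T lists, at ranks 53 and 69, and 13 and 9 in H9, at ranks 157 and 116. These ranks are within whole lists of 120, 85, 1605 and 199 peaks, so they give no direction. TRN-GTT2-1, TRN-GTT2-4 and TRN-GTT2-7 are named as copies of the same mature tRNA, and how reads were divided among them is not known. TRN-GTT2-4 was listed in all 5 with overlapping ranks. The Asn share of tRNA signal was 7.19% to 9.38% in 293T against 6.13% and 13.2% in H9, which overlap.

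The 106 loci in both H9 lists and no 293T list split by their second count. They made up 16 of 119 loci at tRNA genes (13.4%), 13 of 122 at small nucleolar RNAs (10.7%) and 13 of 85 in pseudogenes (15.3%), beside 6.55% of all loci. Protein-coding genes gave the largest number, 31, which was a smaller share, 3.37% of their 920 loci. Copies are counted apart, such as PCDH11X (20 and 17 in H9) and PCDH11Y (18 and 15), or TRQ-CTG3-1 and TRQ-CTG3-2 (9 and 6 each). How reads were divided among such copies is not known, so the 106 loci need not be as many distinct RNAs. At the 16 tRNA genes the second count was 0 in the first H9 list and 0 to 2 in the second, beside signals of 4 to 340 and 6 to 372. At the other 90 loci the second count reached at least 50% of the signal at 2 in the first list and at 61 in the second. Over the 32 loci shared by all lists this was the case for 0 in the first H9 list and 2 in the second. In the second H9 list 88 of 199 peaks (44.2%) had such a second count, against 1.99% in the first and 0 of 120, 85 and 39 in 293T. Leaving out all such peaks, an alternative chosen after seeing the data, gave a count of 46 in place of 106.

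**Figure D4:**
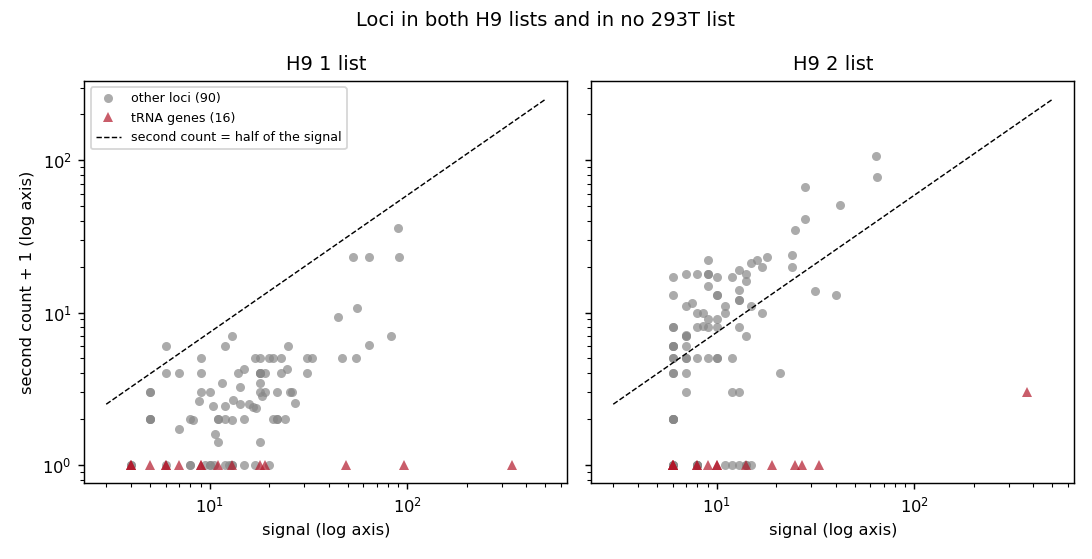
Signal (x, log axis) and second count plus 1 (y, log axis) of the 106 loci found in both H9 lists and no 293T list, in the first (left) and second (right) H9 list. All 16 tRNA genes (triangles) lie at a second count of 0 to 2, and 61 of 90 other loci (circles) lie on or above the dashed line in the second list.

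Of these 106 loci, 12 (0.741% of 1619) had a signal of at least 22 in both H9 lists. They held the tRNA genes TRI-AAT7-2, TRN-GTT7-1 and TRI-AAT2-1, 1 small nuclear RNA and 1 small nucleolar RNA. RN7SK, the 7SK RNA that holds back the transcription factor P-TEFb, had signals of 64 and 28 and second counts of 5.16 and 66. SNORD3A, a gene for U3, which guides early cleavage of ribosomal RNA, had 44.5 and 28 with second counts of 8.33 and 40. RNU2-3P, a U2 pseudogene, had 53 and 42 with 22 and 50. A peak opposite the gene ERO1B had 91 and 64 with 22 and 105, and one in LOC107986098, a long noncoding RNA, had 90 and 65 with 35 and 76. At these 5 loci and at LOC110467538, 6 of the 12, the second count exceeded the signal in the second H9 list. A locus on chromosome 2 without a RefSeq gene (166743601 to 166743800) had 83 and 40 with 6 and 12. Another on an unplaced sequence had 56 and 31.5 with 9.77 and 12.9. In 5 of the 12 loci the second count was below 50% of the signal in both lists.

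Spliceosomal and related RNAs were also listed in 293T in part, mostly in its first list. RNU4-1, a U4 gene, had 92 and 49 in the first and second 293T lists, no peak in the third, and 180 and 40 in H9, with second counts of 5, 5, 11 and 44. RNU2-2, a U2 gene, had 60 in the first 293T list and 98 and 67 in H9, with second counts of 18, 26 and 65. RNU5E-1, a U5 gene, had 18 in the first 293T list and 10.5 and 6 in H9, with second counts of 1, 0 and 6. RMRP, the RNA of RNase MRP, had 45 and 40 in 293T lists 1 and 3 and 170.5 and 75.5 in H9, with second counts of 6.21, 4, 28.2 and 88.7. RNU12, of the minor spliceosome, had 55 and 16 in H9 with second counts of 4 and 21, and no 293T peak. Of 43 spliceosomal RNA genes, 9, 3 and 0 had a peak in 293T against 24 and 13 in H9, of which 7, 2 and 0 and then 9 and 2 reached 22. Of 568 snoRNA and scaRNA genes, 3, 0 and 0 had a peak in 293T against 137 and 17 in H9, and 0 in 293T against 8 and 1 in H9 reached 22. These counts move with list length, from 39 peaks to 1605. Peaks at snoRNA and scaRNA genes were 1.67%, 0% and 0% of all peaks in 293T against 7.60% and 7.54% in H9. Among peaks of at least 22 they were 0%, 0% and 0% against 8.24% and 2.13%. The 1 such peak of at least 22 in the second H9 list was SNORD3A, whose second count of 40 exceeded its signal of 28. At the 13 snoRNA and scaRNA loci in both H9 lists and no 293T list, the median signals were 18.5 and 7. Their median second counts were 2 and 5, so the share in the second H9 list includes peaks of high second count. Peaks at snRNA genes were 12.5%, 3.70% and 0% of those of at least 22 in 293T and 11.8% and 6.38% in H9, which overlap. The 7SL genes RN7SL1 and RN7SL2 had signals of 8.5 to 14 in H9, below the floor, and no 293T peak, and MALAT1 had 10.4 and 6 in H9.

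The share of peaks at tRNA genes did not separate the lines at the common floor. It was 37.5% (exact 95% binomial interval 24.9 to 51.5), 44.4% (30.9 to 58.6) and 46.2% (30.1 to 62.8) in 293T, and 28.2% (19.0 to 39.0) and 40.4% (26.4 to 55.7) in H9. The intervals cover counting error alone. The H9 mean was lower by 8.37 percentage points (34.3% ± 8.62, SD, n = 2, against 42.7% ± 4.58, SD, n = 3; exact two-sided permutation p = 0.3, 0.6 after Benjamini-Hochberg adjustment over 2 shares). The share of signal was 52.2%, 62.0% and 62.6% in 293T against 41.2% and 63.9% in H9, a difference of -6.39 points (exact permutation p = 0.7, adjusted 0.7). Without peaks whose second count was at least 50% of the signal both differences changed sign, to 2.06 and 2.49 points, and without the first H9 list the second became 4.99 points. Without a floor the share of peaks differed by -27.98 points (exact permutation p = 0.1, the smallest possible; adjusted 0.2).

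**Figure D5:**
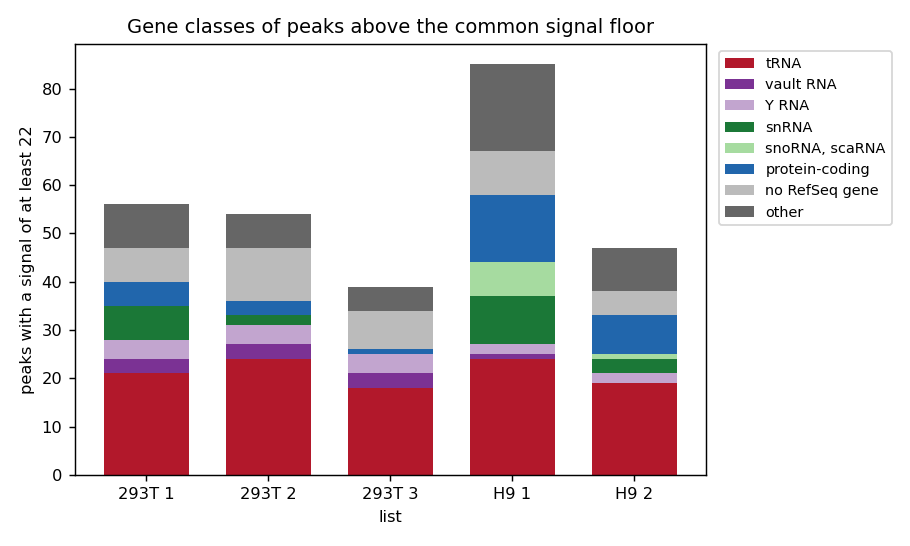
Number of peaks with a signal of at least 22 in each list (bars from 0), split by RefSeq gene class. Each 293T list holds 3 vault and 4 Y RNA peaks, the H9 lists hold 1 and 0 vault and 2 and 2 Y RNA peaks, and snoRNA peaks appear in the H9 bars.

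Peaks at protein-coding genes in the first H9 list lay mostly on the strand of the gene. Where the gene's strand was known, 689 of 759 (90.8%, 95% interval 88.5 to 92.7) were on the gene's own strand, and 680 of all 929 such peaks had a signal of 3. In the second H9 list it was 22 of 29 (75.9%, 56.5 to 89.7), and in 293T 6 of 15, 5 of 9 and 0 of 1. At a signal of at least 22 the sense strand held 6 of 10 and 4 of 7 in H9, and 1 of 5, 0 of 3 and 0 of 1 in 293T. Several of the stronger peaks thus lay opposite the gene they overlap and are named by position. The peak opposite MYOCOS (chromosome 1, 171600801 to 171601000) had 28 and 120 in 293T lists 1 and 2 and 173 and 70 in H9, with second counts of 1, 3, 13 and 29. A sense peak in KIAA0825 had 24 in 293T list 1 and 124 and 29 in H9, with second counts of 6, 22 and 24. The gene SHF held a pair of sense peaks on chromosome 15. The first of these (45198401 to 45198600) had 19 and 17 in 293T lists 1 and 2 and 55 and 28 in H9. The other (45200201 to 45200400) had 16 in 293T list 2 and 40 and 26 in H9, and all second counts at both were 0. The SHF peaks are thus listed in both lines, with no peak in the shortest 293T list.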

How the data were processed

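The authors' peak lists give a signal per peak (per 200-base bin, averaged over the bins of a peak), a p-value, of which no source used here names the test, and a deposited natural log of 1 plus a second count. Per the submitters' processing notes, Bowtie, SAMtools and bedtools were used with build hg38. From these, the second count was recovered by the exponential, peaks were ranked within each list, and overlapping peaks (at least 1 base, same strand) were merged into loci that take their highest peak (Python 3.11.15, pandas 2.3.3, scipy 1.17.1). Merging was tested on simulated lists. Genes came from the RefSeq table of GRCh38.p14 by overlap on either strand, because it gives no strand for small RNAs; a peak over several classes was given to the small RNA first. Coordinates are 1-based. The class comparison planned on the same strand was therefore not made. Members, lists and rules were chosen with earlier results of these data known. Named loci are those of at least 22 in every list of 1 line and none of the other (the 10 best by mean rank), the shared loci with separate ranks, the 5 highest of each list, the fixed small RNA lists and, named after their values were seen, loci present in part of the lists. The tRNA tables were not used here.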

Additional observations from a re-analysis of the deposited data

How the results depend on the processing

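Counts of loci depended on the floor and the list length. The count in both H9 lists and no 293T list, 106 over all peaks, was 15 at a floor of 22, 6 at 40, 11 among the 39 highest peaks of each list and 46 without peaks whose second count was at least 50% of the signal. The count in all 3 293T lists and no H9 list, 1 over all peaks, was 13, 8 and 10 under the first 3 of these. The count in all 5 lists, 32, was 16, 6 and 9, and that of loci with separate ranks, 15, was 8 at a floor of 22. Leaving out each library gave 106 to 1489, 1 to 6, 32 to 61 and 17 to 31 for these counts. Ranks separate more easily with 1 list fewer, so the last range is not comparable with 15. The differences in the share of peaks and of signal at tRNA genes ranged from -14.5 to -2.27 and from -17.8 to 4.99 points when a library was left out, and were 2.06 and 2.49 points without peaks with a second count of at least 50% of the signal. The other alternatives, an authors' p of at most 0.001, overlap of at least 50%, either strand and summed signal, kept the counts within 1.5 times where each was tried. Without a floor, at a floor of 40 and among the 39 highest peaks the tRNA differences kept their sign. The tRNA share by same-strand genes was not run, because small RNA genes carry no strand in the table used. No paired analysis was possible because the lines are separate cells whose replicate numbers mark no shared source, and loci were counted without a test. Depth is unknown, so a missing peak is a signal below the list's limit, or not called, and not an absence of binding.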
